A study of Rattus norvegicus with 4 samples.

Results

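The amino acid transporter genes described here are the rat gene symbols that begin with Slc1a, Slc3a, Slc6a, Slc7a, Slc36a, Slc38a or Slc43a followed by a digit. Of the 23360 genes in the deposited tables, 62 carried such a symbol, and 29 of them had a mean of at least 0.5 TPM (transcripts scaled by length to a fixed total per sample) over all 4 cultures. These 29 are called expressed below. The members were chosen by name, but 1 of the 29, Slc7a6os, is a neighbour of Slc7a6 that encodes no carrier, and it is kept apart from the sums of carriers.

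The cells were INS-1 832/3, called INS-1 here, an insulin-secreting line from a rat insulinoma that carries a human insulin gene and is selected with Geneticin. Messenger RNA was compared between 2 biological replicate cultures grown as a 2D monolayer and 2 that were 3D-bioprinted in the GelXA LAMININK 411 hydrogel, a gelatin methacrylate blended with laminin-411 and crosslinked with light. Per the labels, both groups had the same RPMI-1640 medium with serum, sodium pyruvate, HEPES, 2-mercaptoethanol and Geneticin, and were harvested at passage 3 after 5 days. The model is limited to 1 tumor line, and culture in the gel cannot be told apart here from the printing and crosslinking that come with it.

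Amino acids cross membranes only through carriers. Exchangers such as LAT1 and LAT2 trade an internal amino acid for an external one and need a heavy chain to reach the surface. Sodium-coupled carriers of systems A and N instead concentrate small neutral amino acids such as glutamine. In beta cells amino acids serve as building blocks for insulin, as fuels through glutamate, and as signals. Arginine and lysine enter as cations through CAT carriers and can depolarize the membrane directly.

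The deposited TPM came from Salmon, which assigns reads to transcripts, and TPM corrects for transcript length, so levels can be compared between genes. TPM are shares of a fixed total, of which Ins1 alone took between 114003 and 137822 TPM per culture. For the tests the cultures were therefore scaled, while printed TPM are not. Between 19355 and 19959 transcripts per culture were above 0, and TPM keeps no sequencing depth. The cells carried the markers of their label, with all 13 of the 13 beta-cell markers present in the tables passing the filter used for testing. Endothelial markers summed to 1.14 to 1.74 TPM and leukocyte markers to 0.589 to 1.46 TPM, with Cdh5, Tie1, Ptprc and Cd79a at 0 throughout. In each culture Kdr (0.965 to 1.48 TPM) held most of the endothelial sum and Cd68 most of the leukocyte sum. Kdr was the only endothelial marker to pass the filter (log2 fold change 0.24, adjusted p = 0.198), and no leukocyte marker passed it. Of the 6 fibroblast markers listed, only Thy1 (178 to 212 TPM) and Pdgfra (1.87 to 2.32 TPM) exceeded a mean of 1 TPM, and Dcn and Lum were at 0. Among markers of the other islet cells, Gcg (glucagon) was at 41.9 and 73.8 TPM in 2D monolayer and at 124 and 155 TPM in 3D-bioprinted culture, with a log2 fold change of 1.26 (SE of the fit 0.28, adjusted p = 0.0217), while the 6 others stayed between 0 and 0.299 TPM. Its part in the differences between transporters was not tested.

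**Figure D1:**
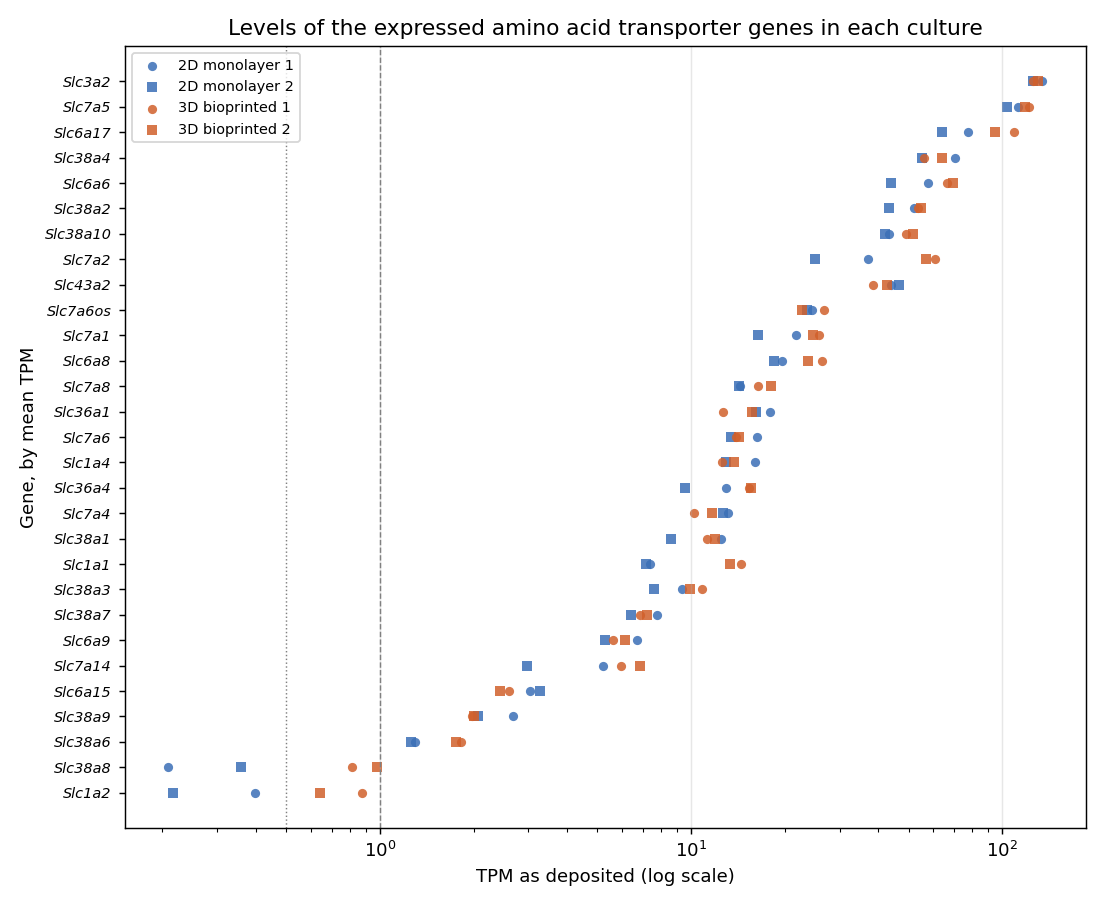
Transcript level of the 29 expressed genes in each culture, in TPM on a log axis, with the highest mean at the top; circles and squares are cultures 1 and 2 of each group, and the dotted and dashed lines mark 0.5 and 1 TPM. Slc3a2 and Slc7a5 lie highest, at 104 to 134 TPM, and Slc38a8 and Slc1a2 lie below 1 TPM in every culture.

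Transcript levels were concentrated in few genes. The 5 most abundant carriers, Slc3a2, Slc7a5, Slc6a17, Slc38a4 and Slc6a6, held 55.4% ± 0.018 of the summed TPM of the 28 expressed carriers in 2D monolayer and 54.3% ± 0.49 in 3D-bioprinted culture (SD, n = 2). Together the 28 carriers summed to 817 and 708 TPM in the 2D cultures and to 878 and 884 TPM in the 3D cultures. Both 3D sums lay above both 2D sums, and the 2D cultures were farther apart than the 3D cultures. An exact two-sided permutation test of 2 cultures against 2 cannot give a p below 0.33, and gave 0.33 here.

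The remaining 33 symbols had a mean below 0.5 TPM and are taken as not expressed, 13 of them at 0 in all 4 cultures. Slc7a11, the light chain of the cystine and glutamate exchanger xCT, reached 0.286 and 0.162 TPM in 2D and 0.207 and 0.311 TPM in 3D culture. The glutamine exchanger Slc1a5 (ASCT2) stayed between 0.136 and 0.228 TPM. Also below the limit were Slc3a1, the other heavy chain of the family, and Slc43a1, a uniporter of large neutral amino acids, both at no more than 0.061 TPM in any culture. The members nearest the limit were Slc1a2 and Slc38a8 just above it, with means of 0.532 and 0.591 TPM, and Slc38a5 and Slc6a19 just below it, with 0.387 and 0.353 TPM. Slc1a2 and Slc38a8 passed only through their 3D values, since their 2D means were 0.306 and 0.283 TPM.

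The comparison of 3D-bioprinted with 2D monolayer culture was fitted with limma on log2(TPM + 1) across the 11960 genes with a mean of at least 1 TPM, after scaling between cultures, with Benjamini-Hochberg adjusted p-values over all of them. SE below is the standard error of the fitted log2 fold change. Fold changes on this scale understate those of genes with low TPM. Of the 27 members tested, 7 were higher and 1 was lower in 3D culture with an adjusted p below 0.05. Those that rose were Slc7a2, Slc1a1, Slc6a17, Slc36a4, Slc6a6, Slc6a8 and Slc38a10, and Slc7a4 fell. The 8 calls are 29.6% of the members tested, where 38.0% of all genes tested were called. By direction, 25.9% of the members rose and 3.7% fell, against 18.5% and 19.5% of all genes. Without scaling between cultures 5 members rose and 0 fell, and 4070 of the 11960 genes were called, against 4541 with scaling. Leaving 1 culture out changed the number of calls among members and among all genes, not always in the same direction. Some of these numbers are given under the processing below. With either 3D culture left out, far fewer of all genes were called than with all 4 cultures.

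The median log2 fold change of the 27 members was 0.11, and that of all genes tested was -0.0031. After scaling, the groups did not overlap in 22 members, or 81.5%, compared with 75.5% of all genes. Of the 27 members, 14 lay higher and 8 lower in 3D culture without overlap, against 37.3% and 38.2% of all genes. A change of at least 0.5 on the log2 scale was reached by 2 of the called members, Slc7a2 and Slc1a1, or 7.41%, against 13.2% of all genes. Both rose, as 8.67% of all genes did by that much. On the same scale, 2D culture 1 lay above 2D culture 2 in 19 of the 27 members (70.4%) and in 47.4% of all genes. Members whose call rests on 1 of the 2D cultures are named below, and the part of this difference in the results was not tested.

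**Figure D2:**
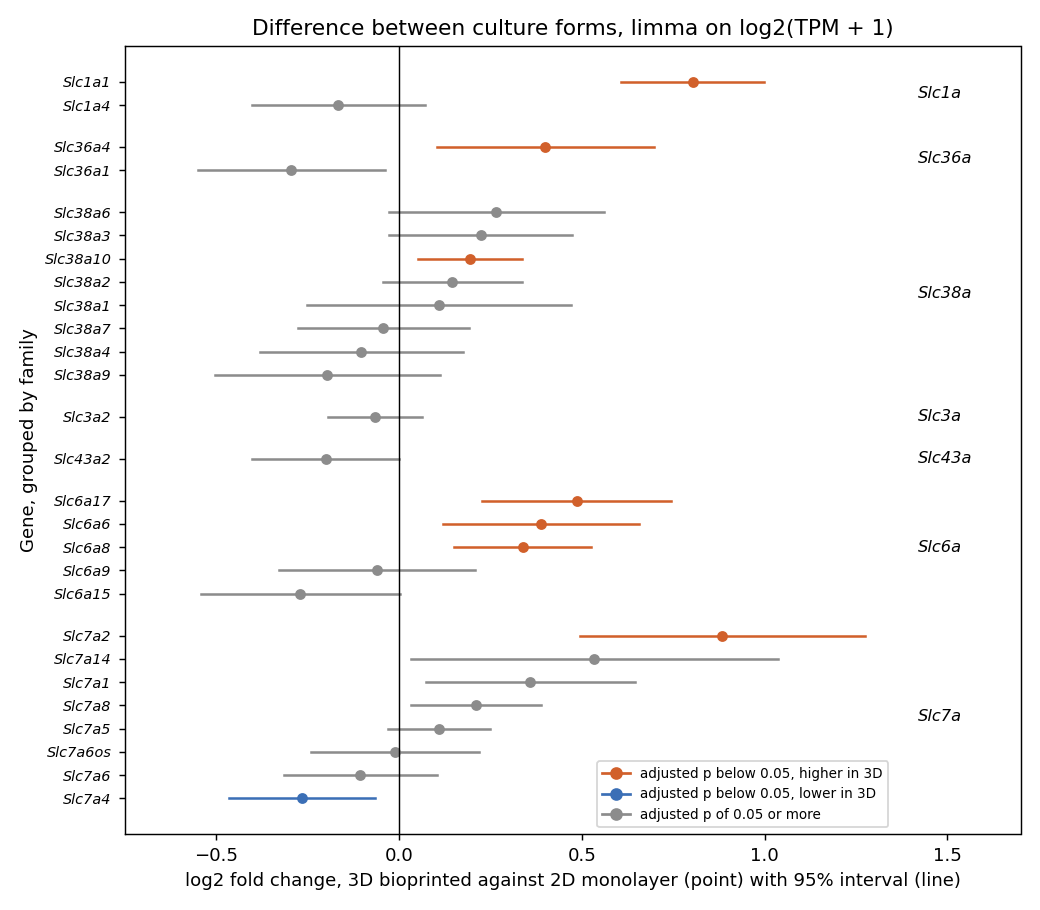
Log2 fold change of 3D-bioprinted against 2D monolayer culture for the 27 genes tested, grouped by family, each with its 95% interval from limma. The 7 orange genes rose, Slc7a4 in blue fell, and the intervals of Slc1a1 and Slc7a2 lie farthest from 0 and span 0.50 to 1.27.

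Among carriers of acidic amino acids, Slc1a1 (EAAT3), the sodium-coupled importer of glutamate, aspartate and cysteine, was at 7.38 and 7.19 TPM in the 2D cultures and at 14.4 and 13.3 TPM in the 3D cultures. Both 3D cultures lay far above both 2D cultures, with a ratio of means of 1.90, and the cultures of each group were close. The fit gave a log2 fold change of 0.80 (SE 0.078, adjusted p = 0.0041). It remained past the threshold in all 8 other settings that kept all cultures. With 3D culture 1 left out the adjusted p was 0.0599. The fold change itself stayed between 0.74 and 0.87 on the log2 scale whichever culture was removed. Slc1a2 (EAAT2 or GLT-1), a glutamate importer best known from astrocytes, had 0.395 and 0.216 TPM in 2D and 0.879 and 0.640 TPM in 3D culture. It was below the limit for testing. Slc1a1 thus held 94.3% to 97.1% of the summed TPM of both genes in each culture.

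For cationic amino acids, Slc7a2 (CAT2), a carrier of arginine, lysine and ornithine, had the largest log2 fold change of the members tested. It was at 37.0 and 25.01 TPM in 2D monolayer and at 60.6 and 57.0 TPM in 3D-bioprinted culture, so that the groups did not overlap, although the 2D cultures differed more than the 3D cultures did. The fit gave a log2 fold change of 0.89 (SE 0.16, adjusted p = 0.0116). All 8 settings that kept the 4 cultures gave an adjusted p below 0.05. Without 3D culture 1 it was 0.0953 and without 3D culture 2 it was 0.0737, and removing any culture kept the log2 fold change between 0.65 and 1.12.

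Slc7a1 (CAT1), the widely expressed carrier of the same substrates, was at 21.8 and 16.4 TPM in 2D and at 25.8 and 24.7 TPM in 3D culture. Both 3D values were the higher ones, but the difference did not pass the test (log2 fold change 0.36, SE 0.11, adjusted p = 0.0557). The log2 fold change was 0.52 without 2D culture 1 (adjusted p = 0.0159) and 0.20 without 2D culture 2 (adjusted p = 0.109). Slc7a3 (CAT3) was at 0.039 to 0.091 TPM. Slc7a2 made up 63.0% and 60.4% of the summed TPM of Slc7a1 and Slc7a2 in the 2D cultures and 70.1% and 69.8% in the 3D cultures, a separation that reaches the smallest exact permutation p of 0.33.

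Slc7a2 is known for alternative forms that differ in affinity, and the tables list 2 transcripts of it without saying which form each encodes. ENSRNOT00000014809.5 had 32.6 and 22.5 TPM in 2D and 47.9 and 45.9 TPM in 3D culture. ENSRNOT00000015127.5 had 4.42 and 2.52 TPM in 2D and 12.8 and 11.1 TPM in 3D culture, a ratio of means of 3.44. Its share of the gene was 12.0% and 10.1% in the 2D cultures and 21.1% and 19.4% in the 3D cultures. Shares of transcripts rest on how the quantification divided reads between similar sequences, and they were not tested.

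**Figure D3:**
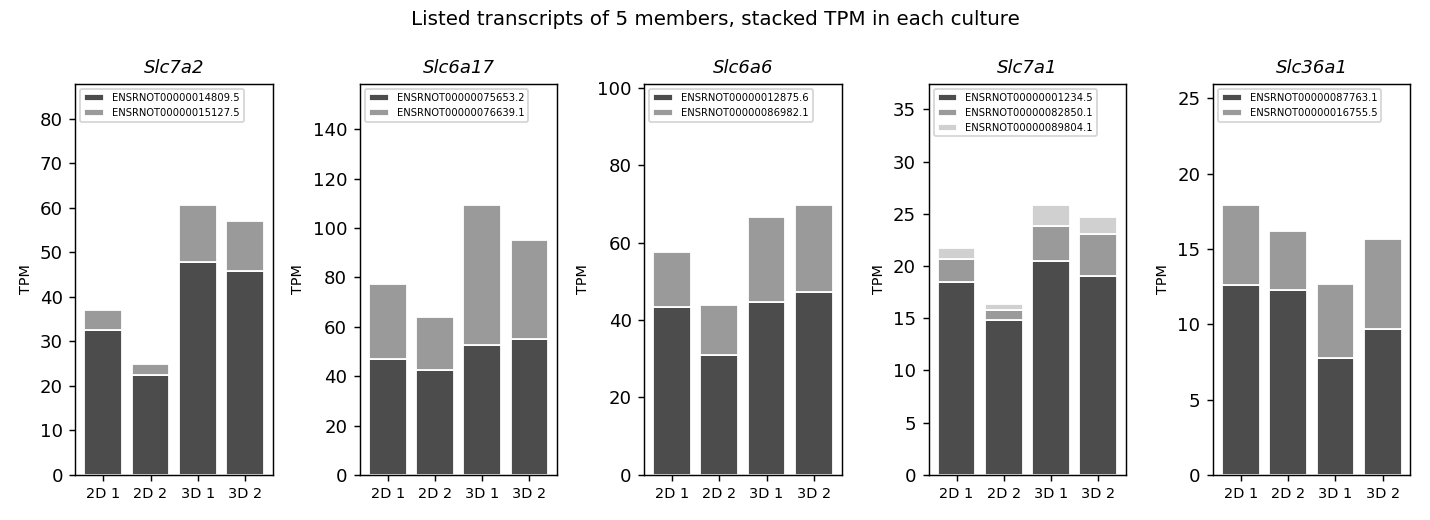
TPM of the listed transcripts of Slc7a2, Slc6a17, Slc6a6, Slc7a1 and Slc36a1, stacked to the total of the gene in each of the 4 cultures. The smaller transcript of Slc7a2 takes 10.1% to 12.0% of the 2D bars and 19.4% to 21.1% of the 3D bars.

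The sodium- and chloride-coupled Slc6a family had 5 expressed members of 19, and 3 of these rose. Slc6a17 (NTT4), which loads neutral amino acids into synaptic vesicles in neurons, was at 77.4 and 63.9 TPM in 2D and at 109 and 94.98 TPM in 3D culture, making it the third most abundant member. All 3D values lay above all 2D values, and the fitted log2 fold change was 0.49 (SE 0.10, adjusted p = 0.0186). With 2D culture 2, 3D culture 1 or 3D culture 2 left out, its adjusted p was 0.0716, 0.120 and 0.0591. Of its 2 transcripts, ENSRNOT00000076639.1 went from 25.8 ± 6.49 to 48.3 ± 11.7 TPM and ENSRNOT00000075653.2 from 44.8 ± 3.07 to 53.9 ± 1.51 TPM (SD, n = 2).

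Slc6a6 (TauT), the importer of taurine, had 57.6 and 44.0 TPM in the 2D cultures and 66.7 and 69.7 TPM in the 3D cultures. Both 3D values were the higher ones, and the 2D cultures differed more than the 3D cultures did. The fitted log2 fold change was 0.39 (SE 0.11, adjusted p = 0.0381), and it was 0.23 without 2D culture 2 and 0.54 without 2D culture 1. Without 3D culture 1 the adjusted p was 0.158, and without 3D culture 2 it was 0.176. The call also ended in 3 of the 8 other settings with all cultures, those without scaling, without an expression filter and without the intensity trend. Slc6a8, the creatine carrier, was at 19.6 and 18.4 TPM in 2D and at 26.3 and 23.8 TPM in 3D culture. Its groups were clearly apart, with a log2 fold change of 0.34 (SE 0.075, adjusted p = 0.0213). It was not called with any of the 4 cultures removed, where its log2 fold change lay between 0.26 and 0.42. With either 3D culture removed, far fewer of all genes were called as well.

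The other expressed members of this family did not pass the test. Slc6a9 (GlyT1), an importer of glycine, had 6.71 and 5.31 TPM in 2D and 5.61 and 6.13 TPM in 3D culture, and the groups overlapped (log2 fold change -0.06, 95% interval -0.33 to 0.21). Slc6a15 (B0AT2), a carrier of branched-chain amino acids and proline, had 3.03 and 3.26 TPM in 2D and 2.60 and 2.43 TPM in 3D culture (log2 fold change -0.27, adjusted p = 0.101). The carriers for dopamine, noradrenaline and serotonin in the family, Slc6a3, Slc6a2 and Slc6a4, were at no more than 0.056 TPM in any culture.

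**Figure D4:**
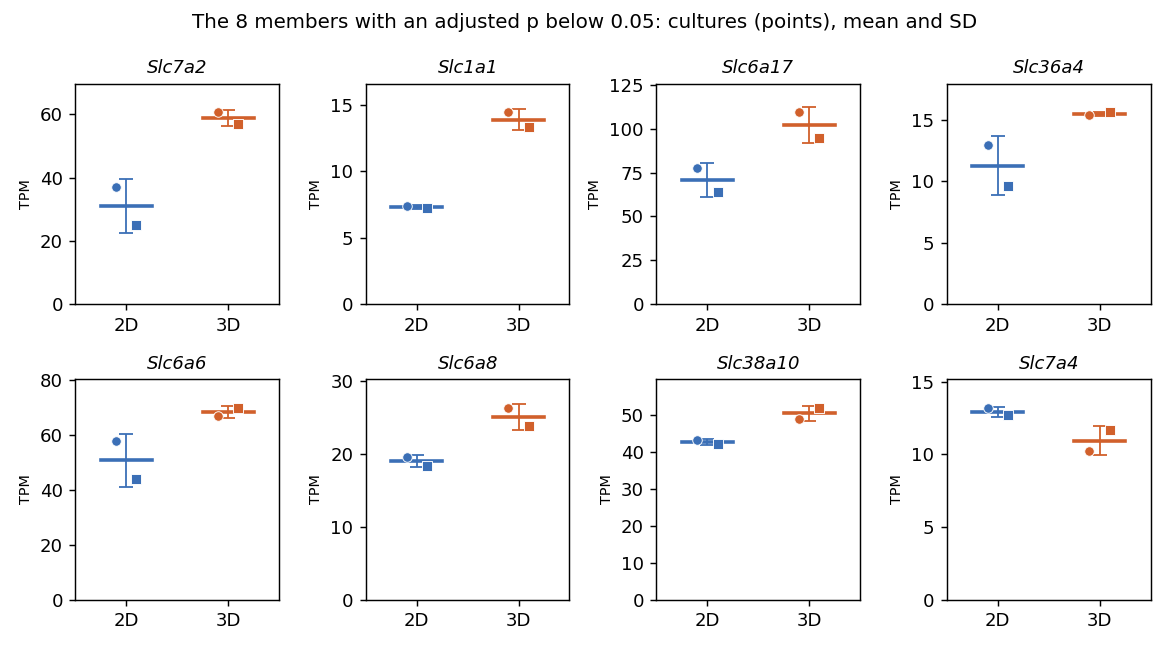
TPM as deposited of the 8 members with an adjusted p below 0.05; points are cultures (circle 1, square 2), horizontal lines the mean and whiskers the SD of 2 cultures, with each axis starting at 0. In all 8 panels the 2D and 3D cultures do not overlap, and the 2D cultures of Slc7a2, Slc6a17, Slc36a4 and Slc6a6 differ by more TPM than those of the other 4 genes.

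The genes grouped here with system L, the transport of large neutral amino acids such as leucine, include the most abundant transcripts. None of the 5 expressed genes of this group passed the test. Slc3a2 (4F2hc or CD98), the heavy chain that brings its partners to the surface, was at 134 and 125 TPM in 2D and at 125 and 130 TPM in 3D culture. Its log2 fold change was -0.07 with a 95% interval of -0.19 to 0.06. Slc7a5 (LAT1), its main light chain here, was at 112 and 104 TPM in 2D and at 122 and 118 TPM in 3D culture (log2 fold change 0.11, 95% interval -0.03 to 0.25, adjusted p = 0.164). The intervals of both genes lay within 0.25 of 0 on the log2 scale.

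Of the other light chains, Slc7a8 (LAT2) was at 14.4 and 14.2 TPM in 2D and at 16.5 and 18.01 TPM in 3D culture, with a log2 fold change of 0.21 and an adjusted p of 0.0637. Slc7a6 (y+LAT2), which exchanges cationic for neutral amino acids, was at 16.3 and 13.5 TPM and at 14.0 and 14.3 TPM. Slc7a5 supplied 78.6% to 80.1% of the summed TPM of these 3 light chains in every culture. The heavy chain was at 0.938 and 0.954 times that sum in 2D and at 0.822 and 0.863 times it in 3D culture, a separation with the smallest exact permutation p of 0.33. Slc43a2 (LAT4), a uniporter that needs no heavy chain, was at 43.9 and 46.6 TPM in 2D and at 38.4 and 42.6 TPM in 3D culture (log2 fold change -0.20, adjusted p = 0.100).

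Systems A and N import glutamine, alanine and other small neutral amino acids with sodium, and none of their 4 expressed genes passed the test. Slc38a4 (SNAT4) was the most abundant, at 70.7 and 55.3 TPM in 2D and at 56.0 and 64.2 TPM in 3D culture, and its groups overlapped. Slc38a2 (SNAT2), the system A carrier that cells induce when amino acids are short, was at 52.0 and 43.4 TPM and at 53.6 and 54.9 TPM (log2 fold change 0.15, 95% interval -0.04 to 0.34, adjusted p = 0.176). Its log2 fold change was 0.24 without 2D culture 1 (adjusted p = 0.0362) and 0.05 without 2D culture 2 (adjusted p = 0.466). Slc38a1 (SNAT1) had 12.5 and 8.59 TPM in 2D and 11.3 and 11.9 TPM in 3D culture. Its adjusted p was 0.568, but 0.0426 without 2D culture 1, and its log2 fold change turned to -0.10 without 2D culture 2. Slc38a3 (SNAT3), of system N, had 9.37 and 7.63 TPM in 2D and 10.8 and 9.90 TPM in 3D culture (adjusted p = 0.127).

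Slc1a4 (ASCT1), an exchanger of alanine, serine and cysteine, had 16.0 and 13.0 TPM in 2D and 12.6 and 13.7 TPM in 3D culture, with an adjusted p of 0.211. Promoters in the RefSeq annotation of the GRCr8 build, taken from 250 bases before to 50 after the gene start, were matched by symbol for 23 of the 29 expressed members and not for Slc1a1, Slc38a10, Slc38a3, Slc6a15, Slc7a2 and Slc7a4. They were searched on both strands for TGATGCAA, core letters of the amino acid response element to which ATF4 binds, chosen with the values known. The letters occurred in 2 of the 23, Slc1a4 and Slc38a1, and in 0.795% of all 33469 promoters. Members are counted by gene and all promoters singly. A gene with more than 1 promoter would have more chances of a match, so the shares are not directly comparable. Both windows are shown because they are the only members with a match, with the match in capitals and read 5′ to 3′ on the strand of the gene. That of Slc1a4 lies at chr14:98761779-98761808 on the minus strand and reads the motif on the opposite strand, and that of Slc38a1 lies at chr7:129681525-129681554, also on the minus strand.
Slc1a4: cgcctccagcgTTGCATCAtccagccagca
Slc38a1: gggggaaactcTGATGCAAccaaccagtcc
The matches begin 235 and 142 bases before the gene starts. Neither gene passed the test.

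Slc36a1 and Slc36a4 belong to the PAT carriers, and Slc38a7 and Slc38a9 act on lysosomes. Of these 4 genes 1 rose and 3 did not pass the test. Slc36a4 (PAT4), a carrier of proline and tryptophan, was at 13.0 and 9.57 TPM in 2D and at 15.4 and 15.6 TPM in 3D culture, with a log2 fold change of 0.40 (SE 0.12, adjusted p = 0.0463). The 2D cultures were farther apart than the higher of them was from the 3D cultures. It passed in 4 of the 8 other settings with all cultures, and the log2 fold change was 0.57 without 2D culture 1 and 0.23 without 2D culture 2. Without 2D culture 2, 3D culture 1 or 3D culture 2 its adjusted p was 0.0793, 0.193 and 0.185. Slc36a1 (PAT1), the proton-coupled exporter of small amino acids from lysosomes, was at 17.9 and 16.2 TPM in 2D and at 12.7 and 15.7 TPM in 3D culture. Both 3D values were the lower ones, but the log2 fold change of -0.29 (SE 0.10) missed the threshold with an adjusted p of 0.0693. It was -0.17 without 3D culture 1.

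Slc38a7 (SNAT7), which exports glutamine and asparagine from lysosomes, had 7.77 and 6.39 TPM in 2D and 6.83 and 7.21 TPM in 3D culture, with overlapping groups. Slc38a9, the lysosomal arginine sensor of mTORC1, had 2.68 and 2.07 TPM in 2D and 1.97 and 2.01 TPM in 3D culture (log2 fold change -0.20, adjusted p = 0.247). Because lysosomal genes are known to carry E-boxes bound by TFEB and related factors, the same promoters were searched for CACGTG, which reads alike on both strands. It occurred in 5 of the 23 members with a promoter (Slc1a4, Slc36a1, Slc38a7, Slc7a14 and Slc7a5) and in 6.42% of all promoters. Here too members are counted by gene and all promoters singly, so the shares are not directly comparable. The motif was searched after the values were known. The windows of Slc36a1, Slc38a7 and Slc7a14, 3 carriers of lysosomes, are shown with the E-box in capitals. Those of Slc1a4 and Slc7a5 are not shown, and the promoter of Slc38a9 had no match. The windows of Slc36a1 lie at chr10:39824983-39825010 and chr10:39825011-39825038, that of Slc38a7 at chr19:9215341-9215368 and that of Slc7a14 at chr2:113993694-113993721, all on the plus strand of GRCr8.
Slc36a1, first: gagtggagcggCACGTGacttgggctcc
Slc36a1, second: ggagctagcgtCACGTGacggggcccgg
Slc38a7: tgattcaaactCACGTGtttctagagtc
Slc7a14: gctggattagcCACGTGatgacaaggag
The matches begin 41, 13, 26 and 76 bases before the gene starts, and none of the 3 genes passed the test.

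Of the members with less settled roles, Slc38a10 was at 43.2 and 42.0 TPM in 2D and at 49.0 and 51.9 TPM in 3D culture. The cultures of each group were close, and this was the smallest change that passed, with a log2 fold change of 0.20 (SE 0.057, adjusted p = 0.0440). With any of the 4 cultures left out the log2 fold change stayed between 0.16 and 0.22 and the adjusted p was between 0.0695 and 0.229. The call also ended in 4 of the 8 other settings with all cultures. Slc7a4, which resembles the cationic carriers in sequence, was at 13.2 and 12.7 TPM in 2D and at 10.2 and 11.6 TPM in 3D culture. It was the only member that fell (log2 fold change -0.27, SE 0.080, adjusted p = 0.0479). Its call did not hold with any culture left out (adjusted p from 0.0954 to 0.264) or in 4 of the 8 other settings.

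Slc7a14, a lysosomal member of the cationic branch, had 5.22 and 2.97 TPM in 2D and 5.94 and 6.84 TPM in 3D culture. Both 3D values were the higher ones, but the 2D cultures were far apart. The log2 fold change was 0.53 with an SE of 0.20 and did not pass the test (adjusted p = 0.0842). It was 0.83 without 2D culture 1 (adjusted p = 0.0160) and 0.24 without 2D culture 2 (adjusted p = 0.181). Slc38a6 was at 1.30 and 1.25 TPM and at 1.82 and 1.76 TPM (log2 fold change 0.27, adjusted p = 0.122). Slc38a8 was at 0.209 and 0.358 TPM in 2D and at 0.815 and 0.981 TPM in 3D culture, too low for testing. Slc7a6os had 24.5 and 23.6 TPM in 2D and 26.6 and 22.7 TPM in 3D culture, with a log2 fold change of -0.01 that was positive without scaling.

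By family, the summed TPM of expressed carriers, as deposited, lay higher in both 3D cultures for Slc6a, Slc7a and Slc1a. Abundant genes weigh most in such sums. In Slc1a, mean TPM went from 7.28 to 13.9 for Slc1a1 and from 14.5 to 13.2 for Slc1a4. In Slc7a, Slc7a2 went from 31.0 to 58.8 TPM. The log2 fold change was below 0 for 2 of the 7 carriers tested in Slc7a and 2 of 5 in Slc6a. Slc6a summed to 150 ± 20.8 TPM in 2D and 204 ± 9.54 TPM in 3D culture, Slc7a to 204 ± 22.3 and 253 ± 3.32 TPM, and Slc1a to 22.1 ± 2.41 and 27.8 ± 0.144 TPM (SD, n = 2). Each of these had an exact two-sided permutation p of 0.33, the smallest possible. For Slc38a the sums were 183 ± 23.1 and 198 ± 8.94 TPM and the groups overlapped. Slc36a had 28.3 ± 3.63 and 29.7 ± 2.26 TPM, and Slc3a, here Slc3a2 alone, 130 ± 6.08 and 128 ± 3.13 TPM. Both overlapped in TPM as deposited, whereas after scaling Slc3a2 lay lower in both 3D cultures (log2 fold change -0.07, not called). Slc43a lay lower in 3D, with 45.2 ± 1.87 and 40.5 ± 3.04 TPM.

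The number of called genes per family was 3 of 5 tested for Slc6a, 2 of 8 for Slc7a (1 higher and 1 lower) and 1 of 8 for Slc38a. It was 1 of 2 for both Slc1a and Slc36a, and 0 of 1 for Slc3a and for Slc43a. Across all genes tested 38.0% were called, 18.5% as higher, and families of this size are too small to be set against that share. Median log2 fold changes were 0.34 for Slc6a, 0.16 for Slc7a (0.21 without Slc7a6os) and 0.13 for Slc38a, beside -0.0031 for all genes tested. In the families with 1 or 2 genes tested they were 0.32 for Slc1a, 0.05 for Slc36a, -0.07 for Slc3a and -0.20 for Slc43a. Without 2D culture 2 the median of Slc38a was -0.02.

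**Figure D5:**
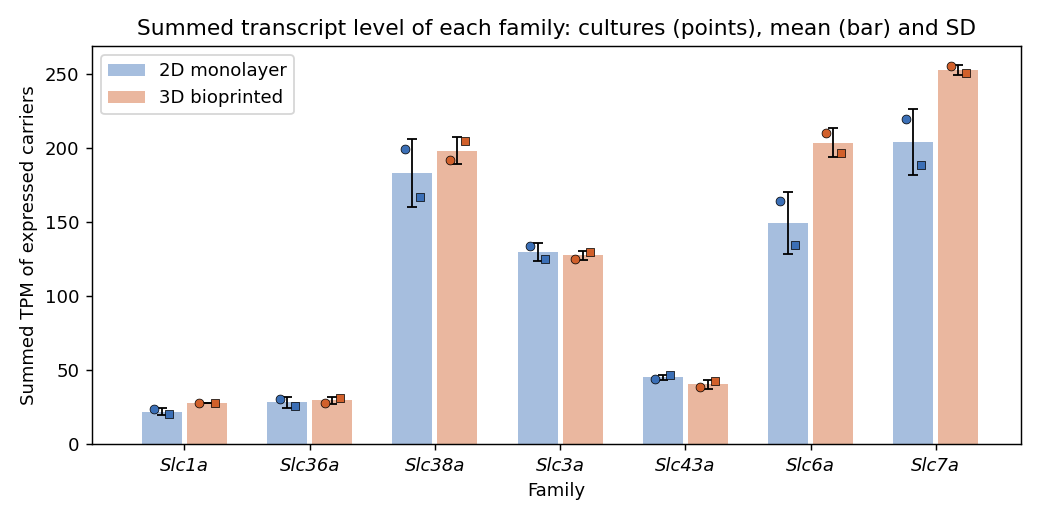
Summed TPM of the expressed carriers of each family; bars are means, whiskers the SD of 2 cultures, and points the cultures (circle 1, square 2), on an axis that starts at 0. The 3D cultures of Slc6a, at 197 and 211 TPM, and of Slc7a, at 251 and 255 TPM, lie above their 2D cultures.

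Other genes that handle amino acids are given by lists. Of the genes tested in the 6 lists, 21.4% to 50% were called, where 38.0% of all genes were (18.5% higher and 19.5% lower), and the median log2 fold change of a list lay between -0.15 and 0.12. These counts describe the lists and were not tested against other genes. Of 25 carriers outside these families, 16 were tested, 2 rose and 4 fell. Slc16a10 (TAT1), a uniporter of aromatic amino acids, rose from 19.2 ± 2.96 to 28.2 ± 1.26 TPM (log2 fold change 0.49). Slc25a38, the mitochondrial glycine carrier, fell from 7.68 ± 0.369 to 5.62 ± 0.209 TPM, and Slc17a7 (VGLUT1), which loads glutamate into vesicles, from 6.06 ± 0.398 to 4.38 ± 0.119 TPM (SD, n = 2).

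Among 16 tested enzymes of glutamine, glutamate and aspartate, 4 rose and 4 fell. Gad1, which makes GABA from glutamate, rose from 10.3 ± 0.045 to 18.7 ± 2.68 TPM (SD, n = 2).

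Cysteine and glutathione synthesis had 10 genes tested, of which 1 rose and 2 fell. The subunits of glutamate-cysteine ligase moved in opposite directions. Gclm, the modifier subunit, was at 55.2 and 47.7 TPM in 2D and at 29.4 and 32.01 TPM in 3D culture, which is -0.77 on the log2 scale (adjusted p = 0.0041). Gclc, the catalytic subunit, was at 11.9 and 9.69 TPM in 2D and at 14.6 and 14.2 TPM in 3D culture (log2 fold change 0.35, adjusted p = 0.0309). Mpst, a sulfur transferase, fell from 30.3 ± 0.022 to 24.3 ± 0.016 TPM (SD, n = 2).

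In branched-chain and arginine metabolism 1 of 14 genes rose and 2 fell. Bcat2, the mitochondrial branched-chain aminotransferase, fell from 10.99 ± 0.821 to 6.62 ± 0.615 TPM and Bckdk, the kinase that restrains the next step, from 66.6 ± 2.62 to 55.4 ± 4.81 TPM, while Azin1, which stabilizes ornithine decarboxylase, rose from 59.9 ± 5.97 to 79.6 ± 3.47 TPM (SD, n = 2). Of 29 genes that sense amino acids for mTORC1, 6 rose, 4 fell and 19 were not called. Flcn and Rragd, both of the Rag GTPase branch, rose with log2 fold changes of 0.34 and 0.42, and Rheb, the GTPase that switches mTORC1 on, fell by 0.26 on the log2 scale. In the GCN2-ATF4 list, which shares Asns, Chac1 and Sesn2 with the lists above, 3 of 18 rose and 6 fell. Psat1, of serine synthesis, and Ddit3 (CHOP) fell by 0.44 and 0.47 on the log2 scale. Atf3 rose by 0.89 at a low level, with 0.864 and 1.19 TPM in 2D and 2.76 and 2.86 TPM in 3D culture.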

How the data were processed

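The authors ran Salmon 1.2 on stranded single-end reads, with rn4 transcripts and human insulin as reference, and deposited TPM per transcript, scaled to 1000000 per sample and written with decimal commas. The DESeq2 test of the study needs counts, which TPM do not carry. Here TPM were summed per symbol, those with means under 1 were dropped, cultures were scaled by unweighted TMM (trims of 30% for M and 5% for A, factors 0.960 to 1.02), and limma 3.58.1 in R 4.3.3 compared the groups on log2(TPM + 1), using empirical Bayes with an intensity trend. Values printed in TPM are as deposited. The steps were also run on simulated TPM with the same spread for all genes, and that run does not vouch for the calls in these data.

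Groups and replicate numbers came from the labels. The members and gene lists were chosen with earlier results of these data known. TPM of all 4 cultures are given for members with a mean TPM of at least 10 or with a call and a log2 change of at least 0.5, and for others that complete a role, and up to 3 genes with the smallest p are named per list. A few genes that qualify are not reported here. The lists hold 25, 18, 13, 17, 33 and 20 symbols. TPM keep no depth, so precision is that of 2 cultures per group. Alternatives were the scaling, filter, pseudocount, trend, replicate block, threshold and each culture left out.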

Additional observations from a re-analysis of the deposited data

How the results depend on the processing

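The number of members higher in 3D culture, 7 as reported, was 5 without scaling or without the intensity trend, 6 with a mean TPM of at least 0.5 (1 of them Slc38a8, which passed that filter only through its 3D values) and 9 with at least 5, and 7 with a pseudocount of 0.1 or 0.5. It was 3 without an expression filter and 1 at an adjusted p below 0.01. All genes below 0.01 were not counted, so that 1 member cannot be set against a share. Over all genes, 4070 of 11960 were called without scaling and 4202 without the intensity trend. With a pseudocount of 0.1 or 0.5 the numbers were 4569 and 4531. With a mean TPM of at least 0.5, 4557 of 12697 were called. With a mean TPM of at least 5, 4104 of 9498 were called, and without an expression filter 3739 of 16749. The number lower, 1 as reported, was 0 without scaling, with a mean TPM of at least 5, without an expression filter, without the intensity trend and at an adjusted p below 0.01. With each culture left out in turn, 0 to 9 members were higher and 0 were lower, the lone culture of a group being taken to vary like the others. Without 3D culture 1, where 0 members were called, 108 of all 11960 genes were called, and without 2D culture 1, where 9 were, 4456 were. Cultures of the same replicate number showed no shared shift (correlation of deviations from the group means -0.006 over 11960 genes). With 1 difference per group this cannot tell whether they were paired in the experiment. Adding the replicate block to the model gave 8 members higher and 2 lower, with 4814 of all genes called against 4541 without it. Slc7a6os turned from -0.0098 to 0.032 without scaling and to 0.014 with a mean TPM of at least 5. Over the cultures left out, log2 fold changes that changed sign ran from -0.10 to 0.32 for Slc38a1, from -0.24 to 0.036 for Slc38a4, from -0.13 to 0.048 for Slc38a7, from -0.17 to 0.054 for Slc6a9 and from -0.13 to 0.11 for Slc7a6os. The cause of these shifts was not tested.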

Other observations

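Among the members below 0.5 TPM, Slc38a5 (SNAT5), a system N carrier, was at 0.196 and 0.256 TPM in 2D monolayer and at 0.562 and 0.534 TPM in 3D-bioprinted culture. Slc6a5 (GlyT2), an importer of glycine, was at 0.201 and 0.199 TPM in 2D and at 0.370 and 0.329 TPM in 3D culture. Both were chosen after their values were seen, and neither was tested.

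The listed transcripts of some members moved apart. ENSRNOT00000087763.1 of Slc36a1 held 70.2% and 76.0% of the TPM of its gene in the 2D cultures and 60.9% and 61.9% in the 3D cultures, and its level went from 12.4 ± 0.215 to 8.72 ± 1.38 TPM (SD, n = 2), while the other listed transcript went from 4.61 ± 1.02 to 5.47 ± 0.712 TPM. For Slc6a9, ENSRNOT00000085527.1 was listed at 0 in both 2D cultures and at 0.507 and 0.927 TPM in the 3D cultures. Slc6a6 had ENSRNOT00000086982.1 at 14.3 and 13.0 TPM in 2D and at 22.1 and 22.5 TPM in 3D culture, 24.8% and 29.5% of the gene in 2D and 33.1% and 32.3% in 3D culture. These transcripts were picked after their values were seen, and no test was made of them.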
